A study of Mus musculus with 10 samples.

Results

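The 10 genes described here encode the D2 dopamine receptor, the 4 subunits of the G protein-gated potassium channel GIRK, 2 inhibitory G protein alpha subunits, 2 RGS proteins and the calcium sensor NCS-1. They were taken by name for their place in this pathway, by a rule that uses no measured value. Earlier results of these data were known when they were chosen. All 10 were found by symbol among the 56691 genes of the deposited count table. The libraries hold ribosome-associated mRNA from the ventral tegmental area, a midbrain region rich in dopaminergic neurons. The restraint group has 5 libraries from male C57BL/6 mice, labelled WT, that went through acute restraint for 30 min. The control group has 5 libraries from male C57BL/6 mice, labelled WT, that were not restrained. In both groups the mRNA was enriched through NBL10-HA, an epitope-tagged construct that the dopaminergic neurons expressed, and no unenriched RNA was analysed here. The promoter or Cre line behind the construct is not given in the sources used here, nor is the number of animals behind a library or the age of the mice. P-values therefore measure the spread between these libraries, which may be partly technical.

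At the cell body and dendrites of a midbrain dopamine neuron, released dopamine acts back on D2 receptors of the same neuron. The activated receptor splits Gi/o proteins into an alpha subunit and a beta-gamma pair, and the beta-gamma pair opens GIRK channels, so that potassium leaves and firing slows. RGS proteins end the signal by speeding GTP hydrolysis on the alpha subunit, and NCS-1 binds the receptor and limits its desensitization. GIRK channels are tetramers, and in mouse ventral tegmental dopamine neurons they are known to be built from GIRK2 (Kcnj6) and GIRK3 (Kcnj9), while GIRK1 (Kcnj3) is known from many other neurons.

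Totals ran from 56082358 to 86584968 counts per library, and 18440 genes entered the test, all 10 members among them. Levels are CPM, read counts scaled to a common library size, after TMM normalization. The dopamine neuron markers Th, the rate-limiting enzyme of dopamine synthesis (477 ± 65.3 CPM in restraint libraries and 411 ± 78.6 CPM in controls; mean ± SD of 5), and Slc6a3, the dopamine transporter (227 ± 51.5 CPM in restraint libraries and 232 ± 49.2 CPM in controls), were well counted. So was Gfap of astrocytes (2471 ± 316 CPM after restraint and 1919 ± 121 CPM in controls). Marker sums of GABA neurons ran from 1812 to 2102 CPM after restraint and from 1561 to 1893 CPM in controls, and those of microglia from 22.3 to 30.4 CPM after restraint and from 22.3 to 35.0 CPM in controls. Those of 3 serotonin neuron genes ran from 8.26 to 116 CPM after restraint and from 48.7 to 143 CPM in controls. A member that other cells also express cannot be assigned to dopamine neurons from these libraries, and in bulk RNA fewer cells of a type and less RNA per cell cannot be told apart. In restraint 1 a count was found for 20936 genes, and in the other 9 libraries for 22268 to 24513. Even numbers made up 80.0 to 84.8% of counts from 1 to 30 in restraint libraries and 76.8 to 79.8% in controls, and the part of this difference in any result was not tested.

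The 4 GIRK subunit genes are related, and reads with several mapping positions were not counted, so the transcripts were compared first. The coding stretches of 87 bases around the potassium selectivity filter are shown here, with the 15 bases that encode the filter itself (threonine, isoleucine, glycine, tyrosine, glycine) in capitals, from GENCODE M21 transcripts (GRCm38).
Kcnj3: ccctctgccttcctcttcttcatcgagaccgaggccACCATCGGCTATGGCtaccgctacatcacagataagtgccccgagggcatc
Kcnj5: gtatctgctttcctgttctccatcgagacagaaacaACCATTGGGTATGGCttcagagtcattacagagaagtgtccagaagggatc
Kcnj6: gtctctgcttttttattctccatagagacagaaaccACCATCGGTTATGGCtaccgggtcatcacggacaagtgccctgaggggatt
Kcnj9: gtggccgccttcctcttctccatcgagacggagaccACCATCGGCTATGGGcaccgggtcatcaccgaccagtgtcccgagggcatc
The windows are coding bases 391 to 477 of Kcnj3, 409 to 495 of Kcnj5, 424 to 510 of Kcnj6 and 322 to 408 of Kcnj9, read along the transcript. The windows were placed by searching each coding sequence for this encoded filter, so its sameness in all 4 is not a result of the comparison. The windows differed between pairs at 17 bases (Kcnj3 and Kcnj9) to 23 bases (Kcnj3 and Kcnj5). Over whole coding sequences, the longest exact stretch shared by any pair was 22 bases (Kcnj5 and Kcnj6). No stretch of 50 bases from the M21 transcripts of any subunit was found in transcripts of another gene on the same strand. On the opposite strand, 4.34% of such stretches of Kcnj6 were found in Gm41505, 2.87% of those of Kcnj9 in Gm36937 and 29.3% of those of Kcnj3 in Gm26794. Of Gnai2, 1.84% were found in other genes on the same strand. In the annotation used for counting, GENCODE M30, Kcnj3 shared 0 exon bases with another gene, Kcnj6 4.98% and Kcnj9 4.01%. Counting did not tell strands apart, so antisense reads in stretches counted for a subunit cannot be told apart from its own. Whether reads over shared exon bases were counted or left out was not checked.

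Levels were compared between genes as CPM per kilobase of exon, with the exon length given in the table, and other scales are named where they are used. In controls the order from high to low was Ncs1 (119.7 ± 9.29 CPM per kilobase), Gnai2 (71.8 ± 6.36), Rgs4 (68.2 ± 13.3), Gnao1 (41.5 ± 4.99), Rgs2 (26.3 ± 2.87), Drd2 (25.4 ± 3.64), Kcnj9 (23.3 ± 3.64), Kcnj3 (13.9 ± 0.77), Kcnj5 (1.68 ± 0.174) and Kcnj6 (0.269 ± 0.0827, SD of 5 libraries here and above). Gnai2 and Rgs4 overlapped in range over the 10 libraries, as did Rgs2 with Drd2, Drd2 with Kcnj9 and Kcnj9 with Kcnj3. Gnai2 lay above Rgs4 in 8 libraries, Rgs2 above Drd2 in 5 and Drd2 above Kcnj9 in 8 of the 10. Ncs1 stood above Gnai2, Rgs4 above Gnao1, Gnao1 above Rgs2, Kcnj9 above Kcnj3, Kcnj3 above Kcnj5 and Kcnj5 above Kcnj6 in 10 of 10 libraries. The place of the G proteins depends on the length used: Gnao1 has 11053 bases of exon in the table but 5526 in its longest M21 transcript. With that length the control mean was 83.1 CPM per kilobase for Gnao1, 71.9 for Rgs4, 123 for Gnai2 and 119.7 for Ncs1, so Gnao1 stood above Rgs4 and Gnai2 above Ncs1.

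**Figure D1:**
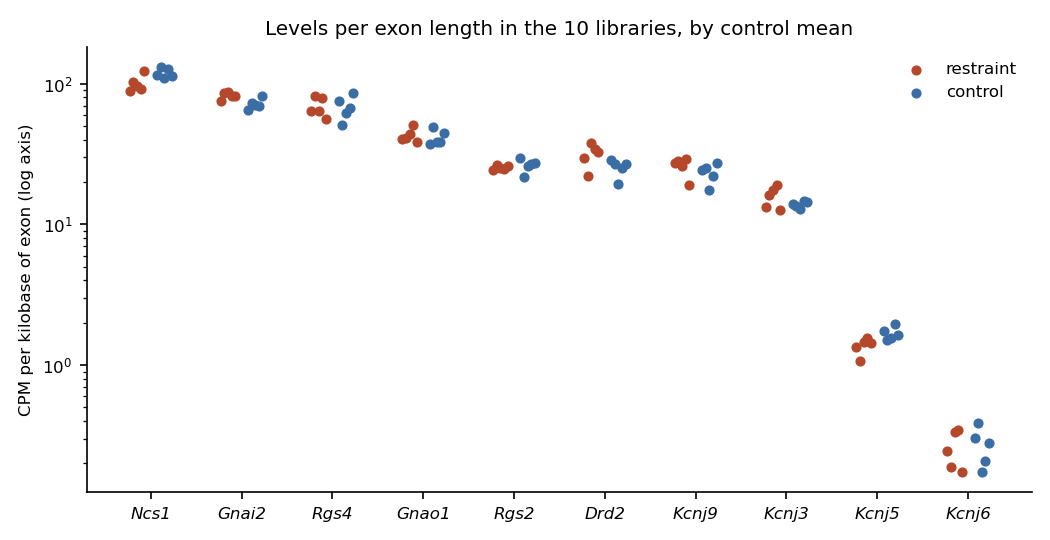
CPM per kilobase of exon (log axis) for the 10 genes in each of the 5 restraint and 5 control libraries, ordered by the control mean; each point is a library. Kcnj6 lies lowest, between 0.173 and 0.385 in all 10 libraries, and Ncs1 highest.

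The GIRK subunits were far from equal in these libraries. Kcnj6, which encodes GIRK2, gave 129, 96, 140, 177 and 114 raw counts in restraint 1 to 5, and 147, 221, 89, 116 and 122 in control 1 to 5. These are 1.86, 1.45, 2.55, 2.64 and 1.33 CPM after restraint, against 2.30, 2.94, 1.32, 1.59 and 2.12 CPM in controls. The level was low in every library of both groups: per exon length, 16.9% of the genes tested had a lower control mean, beside 87.0% for Kcnj9 and 79.9% for Kcnj3. Kcnj9, which encodes GIRK3, and Kcnj3, which encodes GIRK1, carried nearly all of the GIRK signal in these libraries. Markers of other cells were also well counted, so this make-up cannot be assigned to dopamine neurons.

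As a share of the summed level per kilobase of the 4 subunits, Kcnj9 made up 59.9 ± 3.17% after restraint and 59.3 ± 3.30% in controls. Kcnj3 made up 36.3 ± 2.83% after restraint and 35.7 ± 2.88% in controls. Kcnj5, which encodes GIRK4, a subunit best known from the heart, made up 3.23 ± 0.697% after restraint and 4.32 ± 0.586% in controls. Kcnj6 made up 0.588 ± 0.129% after restraint and 0.681 ± 0.172% in controls (SD over 5 libraries each). The shares of the 2 main subunits differed between groups by less than the spread within a group. Per kilobase, Kcnj9 stood between 65.5 and 149.8 times above Kcnj6 in single libraries, and Kcnj3 between 35.2 and 85.9 times. In CPM, without exon length, Kcnj9 was between 36.8 and 84.1 times above Kcnj6. The gene counted as Kcnj6 spans 7633 bases of exon, of which 4.98% are shared with Gm41505 on the opposite strand.

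**Figure D2:**
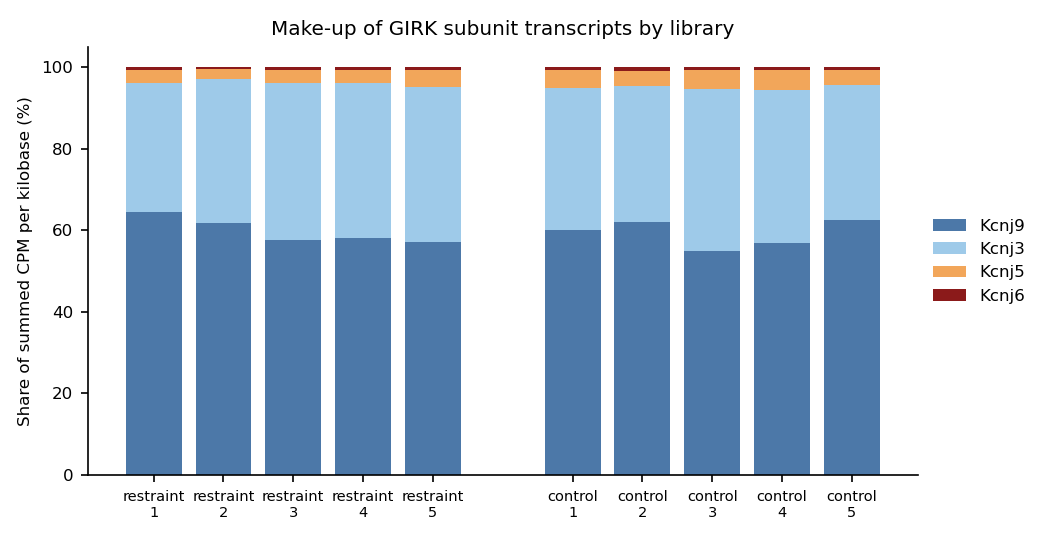
Share (%) of each GIRK subunit gene in the summed CPM per kilobase of the 4, one bar per library. Kcnj9 takes 54.9 to 64.5% and Kcnj3 31.7 to 39.7% in all 10 libraries, while Kcnj6 stays at or below 0.946%.

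Of the 10 members, 0 passed an adjusted p under 0.05 between restraint and control (edgeR quasi-likelihood test, Benjamini-Hochberg over 18440 genes; 0 with limma-voom and 0 with DESeq2, which gave Kcnj6 no adjusted p). Over all genes tested the share that passed was 0.0217% with edgeR (0.00542% higher and 0.0163% lower), 1.8% with DESeq2 and 0.0217% with limma-voom. At an unadjusted p under 0.05 there were 4 members, Drd2 and Gnai2 higher and Kcnj5 and Ncs1 lower after restraint, and the share over all genes was 11.7% (5.64% higher and 6.04% lower). Log2 fold changes of the members were positive for 6 and negative for 4, with a median of 0.04 for the members and -0.00 over all genes, of which 49.6% were positive. In 0 of the 10 did the groups separate fully, which 2.61% of all genes did (1.25% with restraint above and 1.36% with restraint below).

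**Figure D3:**
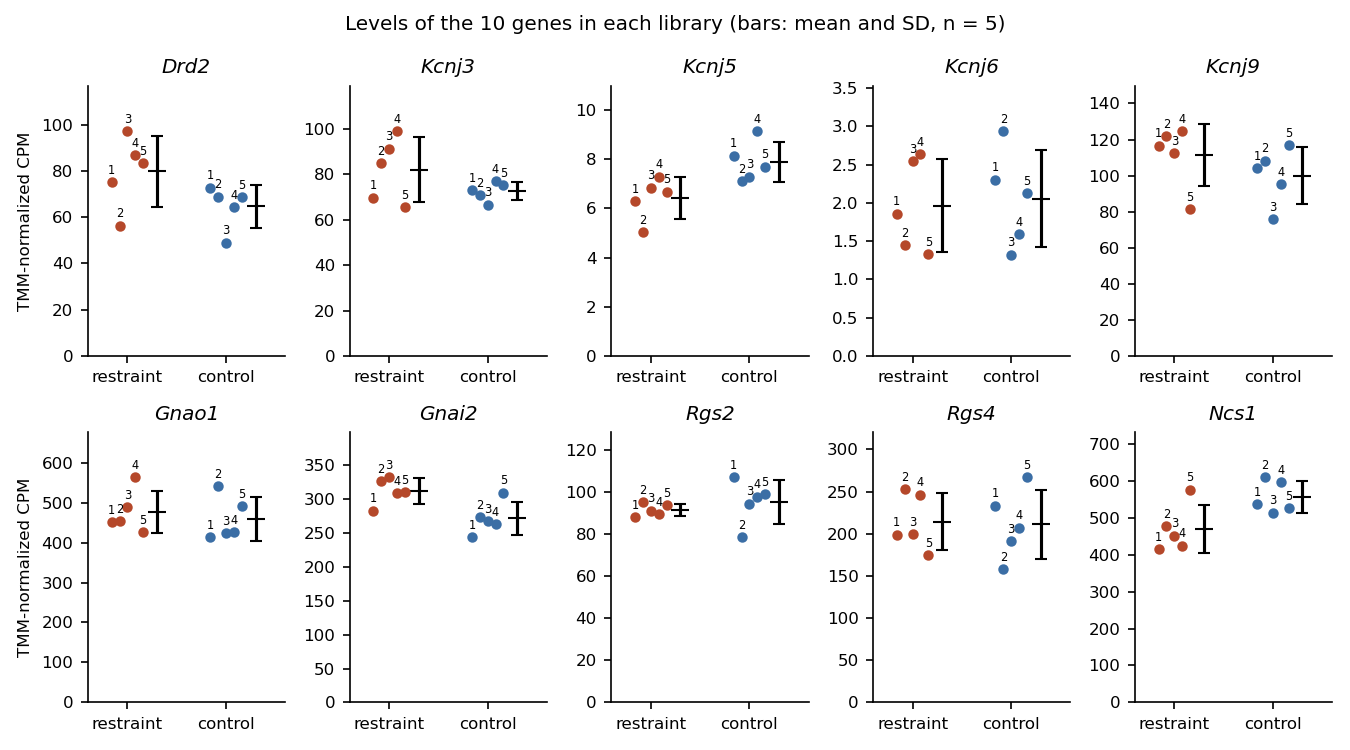
TMM-normalized CPM of the 10 genes in each library, restraint left of control, with replicate numbers beside the points; bars give the mean and SD (n = 5). The groups overlap in every panel, and Ncs1 in restraint 1 to 4 lies below all 5 controls.

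Drd2, the receptor itself, had 75.1, 56.4, 97.3, 86.9 and 83.3 CPM in restraint 1 to 5, against 72.7, 68.9, 49.0, 64.2 and 68.6 CPM in control 1 to 5. All restraint libraries but restraint 2 lay above every control, and restraint 2 lay below 4 of the 5. The means were 79.8 ± 15.3 CPM after restraint and 64.7 ± 9.28 CPM in controls (SD over 5 libraries each). The fold was 1.23, with a 95% interval of 1.02 to 1.49 (log2 0.30 ± 0.13, SE), and did not pass (edgeR adjusted p = 0.371). Leaving out 1 library gave log2 fold changes from 0.22 (without restraint 3) to 0.40 (without restraint 2).

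Dopamine neuron markers also had positive differences on the whole. A list of 13 such genes (Th, Slc6a3, Slc18a2, Ddc, Aldh1a1, En1, Pitx3, Nr4a2, Foxa2, Lmx1b, Slc10a4, Ret and Chrna6) summed to 2266 to 3150 CPM after restraint and 2006 to 2782 CPM in controls, with 11 of 13 log2 fold changes positive, a median of 0.30 and 0 passing. Measured as log2 CPM minus the mean log2 CPM of that list, Drd2 stood at -0.44 ± 0.13 after restraint and -0.46 ± 0.13 in controls (SD over 5 libraries each), a difference of 0.02. The list mean itself stood at 6.73 ± 0.20 after restraint and 6.46 ± 0.21 in controls, a difference of 0.27. All members except Drd2 stood lower relative to it after restraint than in controls. The list was uneven, with log2 fold changes from -0.05 for Ddc and -0.03 for Slc6a3 to 0.57 for En1, and Th at 0.21. A value relative to the list therefore depends on the genes in it. Restraint 2 and control 3, the libraries with the lowest Drd2, had the lowest levels of the list within their groups.

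By likeness over the 10 libraries, measured as Pearson's r of log2 CPM among 10036 genes with a mean log2 CPM of at least 3, the genes most like Drd2 were Tigar (0.951), Ret, the GDNF co-receptor of dopamine neurons (0.941), Chrna4, a nicotinic receptor subunit (0.937), Gucy2c, a guanylyl cyclase receptor (0.935), and Fam210b (0.934). Over the 13 dopamine neuron markers the r with Drd2 ran from 0.342 for Ddc, which encodes the enzyme that makes dopamine from L-DOPA, to 0.941 for Ret, with Th at 0.782 and Slc6a3 at 0.689. These values share the same libraries and scaling, and are given as a description.

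With the other 9 members the r of Drd2 ran from -0.304 with Ncs1 to 0.557 with Kcnj6, a range that overlaps that of the markers, and it stood at 0.426 with Kcnj3 and 0.364 with Kcnj9. Among the 45 pairs of members, r ran from -0.663 for Gnao1 with Rgs2 to 0.744 for Kcnj6 with Gnao1, and Kcnj3 with Kcnj9 stood at 0.680. Such values were common among the 10036 genes ranked. Of these, 89.8% had a lower r with Drd2 than Kcnj6 had, 81.3% a lower one than Kcnj3 and 24.9% a lower one than Ncs1. With Kcnj6, 95.5% had a lower r than Gnao1 had.

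**Figure D4:**
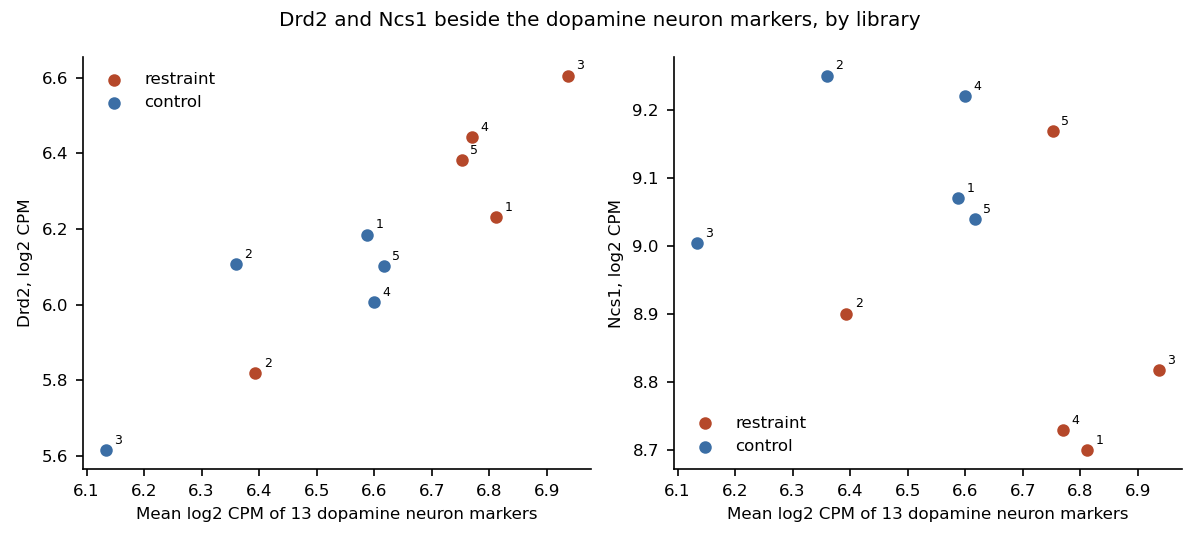
Log2 CPM of Drd2 (left) and Ncs1 (right) against the mean log2 CPM of 13 dopamine neuron markers, a point per library with its replicate number. Control 3 has the lowest and restraint 3 the highest value on both axes of the Drd2 panel; in the Ncs1 panel restraint 1, 3 and 4 have the 3 highest marker levels and the 3 lowest Ncs1 levels.

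Among the channel subunits, Kcnj9 had 117, 122, 112, 125 and 81.5 CPM in restraint 1 to 5, against 104, 108, 75.8, 95.3 and 117 CPM in control 1 to 5. Restraint 5 was low and the other restraint libraries overlapped the upper controls. The fold was 1.11, with a 95% interval of 0.931 to 1.33 (edgeR adjusted p = 0.685). Kcnj3 had 69.7, 84.9, 91.3, 99.1 and 65.6 CPM in restraint 1 to 5, against 73.1, 70.7, 66.7, 76.9 and 75.3 CPM in control 1 to 5. Restraint 2, 3 and 4 lay above every control, restraint 5 below every control. The Kcnj3 fold was 1.13, with a 95% interval of 0.970 to 1.32 (edgeR adjusted p = 0.549), and its coefficient of variation was 17.3% after restraint and 5.54% in controls.

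Kcnj5 had 6.29, 5.03, 6.84, 7.29 and 6.68 CPM in restraint 1 to 5, against 8.14, 7.10, 7.29, 9.15 and 7.70 CPM in control 1 to 5. All restraint libraries except restraint 4 lay below every control. The fold was 0.816, with a 95% interval of 0.670 to 0.993 (log2 -0.29 ± 0.13, SE), and did not pass (edgeR adjusted p = 0.407). Relative to the mean log2 CPM of the 13 dopamine neuron markers, Kcnj5 stood at -4.05 ± 0.11 after restraint and -3.48 ± 0.16 in controls (SD over 5 libraries each). The list mean was 0.27 higher after restraint, which enters this difference of -0.57. For Kcnj6 the fold was 0.953, with a 95% interval of 0.646 to 1.41, the widest of the members on the log2 scale (SE 0.27, edgeR adjusted p = 0.958). That interval includes no change and is not a limit of detection. The coefficient of variation of Kcnj6 was 30.9% after restraint and 30.7% in controls. The sign of its log2 fold change turned positive in 3 of the 10 fits that left out 1 library. The genes most like Kcnj6 over the libraries were Slc8a2 (r = 0.963), a sodium-calcium exchanger, and Gabbr1 (0.961), a subunit of the GABA-B receptor, which also opens GIRK channels, followed by Cntn2 (0.941), Plekho2 (0.939) and Sept3 (0.938). Kcnj6 itself rests on 89 to 221 counts per library.

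Of the G proteins, Gnai2 had 283, 327, 332, 309 and 310.4 CPM in restraint 1 to 5, against 244, 274, 267, 263 and 309 CPM in control 1 to 5. All restraint libraries lay above the control median, and control 5 reached into the restraint range. The means were 312 ± 19.2 CPM after restraint and 271 ± 24.0 CPM in controls (SD over 5 libraries each). The fold was 1.15, with a 95% interval of 1.03 to 1.29 (log2 0.20 ± 0.08, SE), and did not pass (edgeR adjusted p = 0.303). Gnai2 is not confined to neurons, and these libraries do not show which cells its counts came from. The astrocyte marker list summed to 7098 to 8341 CPM after restraint and 6276 to 7390 CPM in controls. Of its log2 fold changes, 7 of 10 were positive and 0 passed. The microglia list summed to 22.3 to 30.4 CPM after restraint and 22.3 to 35.0 CPM in controls. Its median log2 fold change was -0.02. The part of either cell type in the Gnai2 difference was not tested. Relative to the mean log2 CPM of the 13 dopamine neuron markers, Gnai2 stood at 1.55 ± 0.24 after restraint and 1.62 ± 0.23 in controls (SD over 5 libraries each), a difference of -0.07, opposite in sign to its log2 fold change.

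Gnao1, which encodes the Go alpha subunit that is abundant in neurons, ranged from 427 to 563 CPM after restraint and from 413 to 541 CPM in controls. The groups overlapped over nearly their whole range, and the fold was 1.04, with a 95% interval of 0.905 to 1.19 (edgeR adjusted p = 0.889).

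For both RGS members the difference between the group means was smaller than the SD of the controls. Rgs2, known in mouse ventral tegmental dopamine neurons as a regulator of the coupling between GABA-B receptors and GIRK channels, ranged from 88.4 to 95.3 CPM after restraint and from 78.7 to 107 CPM in controls. Every restraint library lay inside the control range and below the control median. The Rgs2 fold was 0.960, with a 95% interval of 0.850 to 1.08 (edgeR adjusted p = 0.853). Its coefficient of variation was 3.12% after restraint and 10.9% in controls. Rgs4, a regulator of Gi and Gq signals in many neurons, ranged from 175 to 253 CPM after restraint and from 158 to 267 CPM in controls, with a fold of 1.01 and a 95% interval of 0.841 to 1.22 (edgeR adjusted p = 0.975). The genes most like Rgs4 over the libraries were Calb1, calbindin (r = 0.892), and the neuropeptide gene Npy (0.876), followed by Tdrd3 (0.875), Polr3d (0.845) and Adcyap1, which encodes the peptide PACAP (0.837).

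Ncs1, the calcium sensor that binds the D2 receptor, had the smallest p of the members and the opposite sign to Drd2. It had 416, 478, 451, 425 and 576 CPM in restraint 1 to 5, against 538, 609, 514, 597 and 527 CPM in control 1 to 5. Restraint 1 to 4 lay below every control and restraint 5 above 3 of them. The means were 469 ± 64.5 CPM after restraint and 557 ± 43.2 CPM in controls (SD over 5 libraries each). The fold was 0.843, with a 95% interval of 0.737 to 0.963 (log2 -0.25 ± 0.09, SE), and did not pass (edgeR adjusted p = 0.283). Without restraint 5 the log2 fold change was -0.34 with an edgeR adjusted p of 0.0748, the lowest of any member under any alternative; over the other settings the adjusted p of Ncs1 reached up to 0.525. Relative to the mean log2 CPM of the 13 dopamine neuron markers, Ncs1 stood at 2.13 ± 0.31 after restraint and 2.66 ± 0.22 in controls (SD over 5 libraries each). The list mean was 0.27 higher after restraint, which enters this difference of -0.53. On the same measure Kcnj6 differed by -0.34, Rgs2 by -0.33 and Drd2 by 0.02, and the remaining members were also lower.

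**Figure D5:**
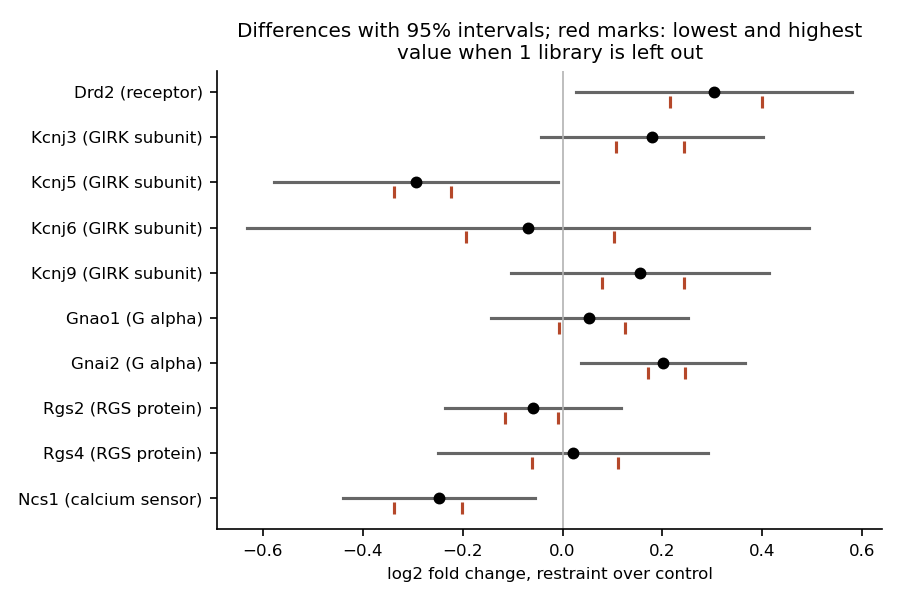
Log2 fold change of restraint over control for each member (points) with its 95% interval (lines), and in red the lowest and highest value when 1 library is left out. The intervals of Drd2, Kcnj5, Gnai2 and Ncs1 lie to one side of 0, before adjustment over all genes.

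The other genes of the pathway were read from 9 lists with 89 genes, of which 88 were tested. Of these, 0 passed in either direction with edgeR, and 1, Rgs7bp, was higher with DESeq2 (adjusted p = 0.0331), where 0.754% of all genes were. At an unadjusted p under 0.05 there were 14 of 88, 11 higher and 3 lower, a share of 15.9% beside 11.7% of all genes. The median log2 fold change of the 88 was -0.01, with 39 positive. In 2 of the 88, Rgs7bp and Grk3, the restraint libraries lay above all controls, beside 1.25% of all genes.

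Of these 14 genes, the list of receptor kinases and arrestins held 2 (both higher, of 7 tested). Its median log2 fold change was -0.01, with 3 of 7 positive. The list of other RGS proteins and their partners held 6 (5 higher and 1 lower of 15 tested, median log2 fold change 0.10). Among the 5 higher genes, Rgs5 is also a pericyte marker, with 5.58 ± 0.669 CPM after restraint and 4.14 ± 0.96 CPM in controls. The 8 endothelial and pericyte markers, Rgs5 among them, summed to 15.4 to 24.0 CPM after restraint and 13.1 to 18.9 CPM in controls, with 7 of 8 log2 fold changes positive, a median of 0.24 and 0 passing, and their part in the Rgs5 value was not tested. The G alpha list held 1 (lower, of 7), the G gamma list 1 (higher, of 9), the list of other Gi/o receptors 2 (1 higher and 1 lower of 12) and that of binding proteins 2 (both higher, of 14). The lists of G beta subunits (5 tested), of adenylyl cyclases and protein kinase A (15 tested) and of other dopamine receptors (4 tested) held 0. Rgs7bp, which anchors RGS7 family proteins at the membrane, had 276, 334, 346, 364 and 292 CPM in restraint 1 to 5, against 269, 266, 249.5, 272 and 256 CPM in control 1 to 5. Its log2 fold change was 0.30 ± 0.08 (SE; edgeR adjusted p = 0.169). Rgs20, which acts on the alpha subunit Gz, stood at 35.0 ± 5.35 CPM after restraint and 28.4 ± 1.62 CPM in controls. The log2 fold change of Rgs20 was 0.30 ± 0.10 (SE; edgeR adjusted p = 0.247). Of its exon bases, 5.9% are shared with Atp6v1h and Gm17101 on the opposite strand. These 2 genes held 131430 counts over the 10 libraries, against 21387 for Rgs20, and the effect on its level was not tested.

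Grk2 and Grk3 encode kinases that can desensitize the D2 receptor. Grk2 stood at 241 ± 21.4 CPM after restraint and 202 ± 28.7 CPM in controls (log2 0.25 ± 0.10, SE). Grk3 stood at 74.4 ± 5.86 CPM after restraint and 64.5 ± 2.67 CPM in controls (log2 0.21 ± 0.08, SE). Neither passed (edgeR adjusted p = 0.304 for Grk2 and 0.291 for Grk3).

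Of the G protein lists, Gng3, a gamma subunit of neurons, stood at 473 ± 86.6 CPM after restraint and 375 ± 44.7 CPM in controls (log2 0.33 ± 0.12, SE). Of its exon bases, 24.2% are shared with Bscl2 on the opposite strand. Gng4 stood at 115 ± 8.05 CPM after restraint and 108 ± 9.62 CPM in controls. The alpha subunit genes Gnai3 and Gnal had log2 fold changes of -0.28 ± 0.12 and -0.18 ± 0.10 (SE), and the beta subunit genes Gnb2 and Gnb1 of -0.15 ± 0.09 and -0.07 ± 0.06 (SE). None of these 6 passed. On the cAMP branch, which Gi/o alpha subunits inhibit, the catalytic subunits of protein kinase A had log2 fold changes of -0.15 ± 0.07 for Prkaca and 0.13 ± 0.07 for Prkacb (SE), and 0 of 15 genes of that list reached an unadjusted p under 0.05.

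Among other receptors that open GIRK channels, the nociceptin receptor gene Oprl1 stood at 73.3 ± 9.70 CPM after restraint and 91.7 ± 8.88 CPM in controls (log2 -0.32 ± 0.10, SE; edgeR adjusted p = 0.195). The alpha-2A adrenergic receptor gene Adra2a stood at 58.9 ± 6.75 CPM after restraint and 48.0 ± 8.94 CPM in controls (log2 0.29 ± 0.12, SE; edgeR adjusted p = 0.334). The other dopamine receptors were low, with Drd1 at 2.82 ± 0.745 CPM after restraint and 3.55 ± 0.353 CPM in controls and Drd5 at 2.04 ± 0.571 CPM after restraint and 2.60 ± 0.637 CPM in controls. Per kilobase of exon, Drd1 stood at 0.979 and Drd5 at 0.826 CPM in controls, against 25.4 for Drd2. Of the Drd5 exon bases, 48.6% are shared with Gm26560 on the opposite strand, and the effect of this on its level was not tested. Of the proteins that bind D2 receptors or GIRK channels, Ppp1r9b, spinophilin, had a log2 fold change of 0.26 ± 0.10 and Hpcal1, a relative of Ncs1, of 0.22 ± 0.10 (SE), neither of which passed.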

How the data were processed

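The deposited table holds whole-number read counts per gene for 5 restraint and 5 control libraries, made with featureCounts 2.0.3 on exons of GENCODE M30 with paired-end input, per the file headers. No strand and no read-pair option is recorded there, so both mates were counted and strands were not told apart. FastQC, Trimmomatic and STAR were used, per the submitters' processing notes, which name mm10, while GENCODE M30 annotates GRCm39. For 8 of the 10 members the gene spans in the table and in GENCODE M21 (GRCm38) share no position, and these genes held at least 4859 counts over the 10 libraries, so the table's coordinates fit its counts. Symbols came from a table of gene identifiers and names (52073 genes matched). Exon length, also a deposited value of the table, was used for CPM per kilobase.

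Genes were filtered with filterByExpr (count minimum 10, total minimum 15) and normalized by TMM. Tests used edgeR 4.0.16 (glmQLFit, glmQLFTest, group only) in R 4.3.3, with Benjamini-Hochberg adjustment and a threshold of 0.05. Standard errors came from the fold change and F statistic; log2 CPM used a prior count of 2. Library depth was 56082358 to 86584968 counts. The median standard error of log2 fold changes over all genes was 0.136. For Drd2 the standard error was 0.131 in the main fit and 0.130 with halved counts. Alternatives were other normalizations, filters, DESeq2 1.42.0, limma-voom (limma 3.58.1), robust dispersion, removal of each library's length trend (lowess span 0.3), halved counts, a replicate block and leaving out each library. The edgeR script was first tested on simulated data with known changes.

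The members and lists were chosen with earlier results of these data known. The text names all members, the pathway genes past the threshold or, where fewer than 2 passed, the 2 per list with the smallest p, the 5 genes most like Drd2, Kcnj6 and Rgs4, and Th, Slc6a3 and Gfap. Ddc, En1 and Rgs5 were named after their values were seen. Predicted gene models were left out of the likeness ranking. The members are at, in GRCm39 coordinates as the table gives them, chromosome 9, 49251927 to 49319477 (Drd2); 2, 55325982 to 55488157 (Kcnj3); 9, 32226003 to 32255646 (Kcnj5); 16, 94549495 to 94798560 (Kcnj6); 1, 172148068 to 172156885 (Kcnj9); 8, 94536594 to 94696016 (Gnao1); 9, 107491324 to 107512566 (Gnai2); 1, 143875076 to 143879899 (Rgs2); 1, 169569046 to 169575211 (Rgs4); and 2, 31135835 to 31186001 (Ncs1).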

Additional observations from a re-analysis of the deposited data

Results flagged for a closer look

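Of 28 groups of 5 values checked (CPM of each member and share of each GIRK subunit, in each group), 1 held a library set apart from the rest of its group. In restraint 5 Kcnj9 stood at 81.5 CPM, while restraint 1 to 4 had 112 to 125 CPM. The gap to the nearest library, divided by the range of the group, was 0.716. Chance flags about 1 in 20 groups. Without restraint 5 the log2 fold change of Kcnj9 was 0.24, against 0.16 with all libraries, and it did not pass in either case. The same library had the lowest Kcnj3 (65.6 CPM) and the highest Ncs1 (576 CPM) of the restraint group.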

How the results depend on the processing

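Over 23 other settings, 220 of 230 member values kept their sign and their side of the threshold; the other 10, in 3 members, changed sign without passing. With limma-voom quality weights the log2 fold change was 0.036 for Kcnj6 and -0.021 for Rgs4. Leaving out 1 library gave -0.19 to 0.10 for Kcnj6 (positive without restraint 2, restraint 5 or control 2), -0.0077 to 0.13 for Gnao1 (negative without restraint 4) and -0.060 to 0.11 for Rgs4 (negative without restraint 2, restraint 4, control 2 or control 3). The number of members past the threshold was 0 in every setting. Over all genes, the 1 higher and 3 lower calls became 5 and 12 with library size only, 103 and 199 without the count filter, 139 and 192 with DESeq2, 21 and 66 with quality weights and 34 and 51 with the length trend removed. They became 0 and 0 with robust dispersion, with the replicate block and with the length trend removed in the replicate block, beside 2154 genes at an unadjusted p under 0.05 in edgeR without it. Leaving out 1 library gave 0 to 9 higher and 0 to 83 lower; without restraint 5 there were 9 and 83, without control 5 there were 4 and 16, without restraint 2 there were 2 and 15, without restraint 1 there were 2 and 0, and without any of the other 6 there were 0. The cause was not tested. DESeq2 called 1 pathway gene higher. In the replicate block the log2 fold change of Drd2 was 0.29 and that of Gnai2 0.20, with 0 members past the threshold; same-numbered libraries deviated together with correlations of -0.45 to 0.26, so the numbers were not taken as pairs. Shares from CPM without exon length were 40.6% after restraint and 40.0% in controls for Kcnj3, 0.963% and 1.12% for Kcnj6 (restraint, control) and 55.1% and 54.6% for Kcnj9 (restraint, control). With the longest M21 transcript, a choice made after seeing the data, Kcnj6 made up 1.15% after restraint and 1.33% in controls.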
